A study of Caenorhabditis elegans with 6 samples.

Results

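The regions described here are sites that 3 ChIP-seq replicates of the nuclear receptor NHR-25 all list as peaks but that the authors' combined peak list lacks. Overlapping peaks of replicate 1 on the 6 nuclear chromosomes were joined into 24664 regions. Of these, 10289 overlapped by at least 1 bp a peak of replicate 2 and a peak of replicate 3, which is 41.7% of all regions. In 4799 of them no combined peak was touched; they are called unlisted sites here. They make up 19.5% of all regions and 46.6% of those found in every replicate. The sites were thus chosen by the overlap of called peaks in the 4 lists. The other 5490, which overlap a combined peak, are called listed sites. A further 14187 regions of replicate 1 had no combined peak and lacked a peak in at least 1 of the other replicates. They are called unreplicated regions here, though many had a peak in 1 other replicate. Without a combined peak, 8099 regions of replicate 1 overlapped a peak of replicate 2 and 8797 overlapped a peak of replicate 3. Both counts include the 4799 unlisted sites. Another 188 regions had a combined peak without being found in every replicate.

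The samples were L2 larvae of Caenorhabditis elegans, hermaphrodites of strain OP33 raised at 20 °C and fixed with 2% formaldehyde. All 6 samples, 3 ChIP and 3 input, carried the allele unc119(ed3) and the transgene wgIs33, an nhr-25 fusion with TY1, EGFP and FLAG tags brought in by bombardment. No group without the tag is among them, and the chromatin came from whole animals, so a site in a few cells and a weak site in many cannot be told apart. The peak lists of the 3 ChIP replicates and the combined list were used, and the inputs were not analysed here. Whether each replicate was a culture of its own is not stated, so their spread may be technical.

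NHR-25 belongs to the NR5 nuclear receptors, as do Drosophila FTZ-F1 and mammalian SF-1. These receptors bind DNA as monomers, and in the worm NHR-25 is known for its roles in epidermal cells, including the seam, in vulval development and in molting. Combined lists of this kind are commonly drawn with the irreproducible discovery rate (IDR), a procedure that compares the ranks of peaks between replicates and keeps those whose ranks are in accord. The autosomes of C. elegans have gene-dense centres with little recombination and outer arms that are richer in repeats, a contrast that is weaker on X.

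Unlisted sites ranged from calls that were weak in every replicate to a small number that were strong in all 3. Strength was read from the number that the authors gave each peak, which starts at 1 for the strongest and reaches 30000, 29241 and 30000 in replicates 1, 2 and 3. For a region the best number of its overlapping peaks was taken, and the worst of the 3 replicates' numbers served to place it. The median number of unlisted sites was 13041, 13132 and 12842 in replicates 1, 2 and 3, against 2972, 3030 and 3040 in listed sites. The false discovery rate (FDR) that the authors' value stands for had medians of 0.300, 0.311 and 0.294 in unlisted sites, against 0.000118, 0.000517 and 0.000121 in listed sites. An FDR over 0.05 in every replicate was seen for 2461 unlisted sites (51.3%) and 19 listed sites (0.346%), 24.1% of both together. A further 1540 unlisted sites (32.1%) were at or under 0.05 in 1 replicate, against 400 listed sites (7.29%). For 2 replicates the counts were 608 unlisted sites (12.7%) and 1279 listed sites (23.3%). Sites better supported in some replicates than in others were thus found in both sets. The combined list comes from the same ChIP samples, so these values describe the choice and were not tested.

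The strongest unlisted site lay on chromosome X from 12480585 to 12480692 (all positions are WormBase WS220), numbered 797, 603 and 807 in replicates 1, 2 and 3. Replicate 1 gave it an interval of only 108 bp, while replicates 2 and 3 gave 430 and 450 bp around the same place, from 12480400 to 12480829 and from 12480360 to 12480809. The next lay on chromosome V from 8500297 to 8500726 and was numbered 964, 901 and 891. These were the only unlisted sites among the first 1000 peaks of every replicate. The third, on chromosome I from 7283635 to 7284064, was numbered 1147, 662 and 1074, and its 3 peak midpoints lay within 9 bp. The fourth, on IV from 8743927 to 8744356, was numbered 852, 1453 and 1242, and the fifth, on IV from 10221972 to 10222600, was numbered 1446, 1465 and 1310. All 20 strongest unlisted sites stood at the highest value that each replicate list contains, a ceiling shared by 4248, 2662 and 4126 peaks in replicates 1, 2 and 3. Their worst numbers ran from 807 to 2494, and the next site had 2518.

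**Figure D1:**
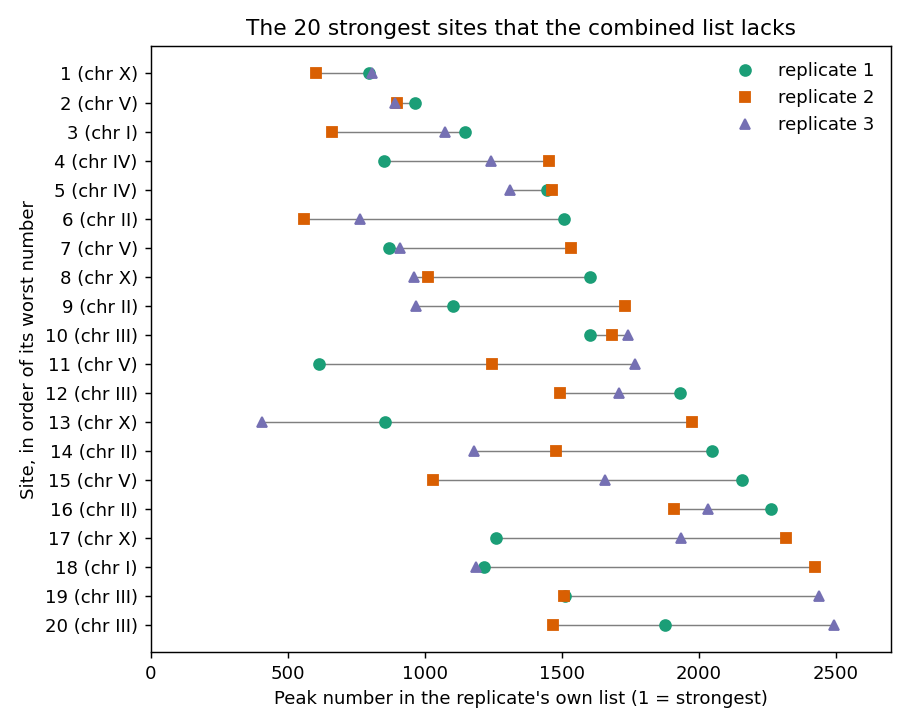
Peak number of the 20 strongest unlisted sites (1 row per site, with its chromosome) in replicate 1 (circles), replicate 2 (squares) and replicate 3 (triangles). Lower numbers are stronger, and grey lines join the 3 values of a site, which lie between 406 and 2494.

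Several of these sites were far from any combined peak, so the combined list held nothing in their neighbourhood. The distance, measured from edge to edge, exceeded 10 kb for 13 of the 20. The site on II from 3682715 to 3683144, numbered 1104, 1730 and 970, was 125 kb from the nearest combined peak. On V the site from 15464954 to 15465383 was numbered 2158, 1030 and 1657 and was 46.3 kb away. The site on III from 4795945 to 4796374, numbered 1932, 1493 and 1710, was 38.7 kb away, and the fourth site above was 37.9 kb away. These were strong calls far from any combined peak, as were the 2 first ones, with distances of 20.1 kb on X and 33.1 kb on V. The remaining sites beyond 10 kb were the fifth site above at 20.1 kb, V from 9243570 to 9243999 at 22.7 kb (numbered 615, 1246 and 1769), X from 12975558 to 12975987 at 13.1 kb (856, 1977 and 406), II from 6913223 to 6913652 at 12.8 kb (2050, 1478 and 1180), II from 8157913 to 8158342 at 14.3 kb (2263, 1910 and 2033), X from 9743416 to 9743845 at 12.0 kb (1261, 2317 and 1936) and III from 8528843 to 8529528 at 24.1 kb (1876, 1467 and 2494). The site on X at 12975558 was numbered 406 by replicate 3 and 1977 by replicate 2, although its value stood at the ceiling in each replicate.

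Other strong sites lay close beside a combined peak. The site on I from 8868980 to 8869409, numbered 1217, 2426 and 1188, was 293 bp from combined peak 1867. On III the site from 4720781 to 4721210, numbered 1512, 1510 and 2439, was 543 bp from combined peak 3821. On V the site from 12635239 to 12635668, numbered 871, 1533 and 910, was 569 bp from combined peak 1356. The third site above was 791 bp from combined peak 4748, so these 4 had a listed neighbour within 1000 bp without overlapping it. Sites on II from 9054538 to 9054967 (numbered 1510, 561 and 765), III from 6172922 to 6173351 (1605, 1685 and 1741) and X from 13104835 to 13105264 (1604, 1012 and 960) were at 2334, 2522 and 3270 bp.

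How often a site was missing from the combined list followed its strength. Among regions with a worst number of 2000 or less, 13 of 1254 were unlisted (1.04%, exact 95% interval 0.553 to 1.77%). The share was 2.26% in the class over 2000 and up to 4000, then 6.60% up to 6000, 13.8% up to 8000 and 29.0% up to 10000. The class from there up to 15000 was the first in which most were unlisted, with 779 of 1425 (54.7%, exact 95% interval 52.0 to 57.3%), and the share was 78.3% up to 20000 and 91.8% beyond. No single number separated the sets, and 225 listed sites had a worst number over 20000. The intervals are exact Clopper-Pearson ones for 95% and cover counting error only.

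**Figure D2:**
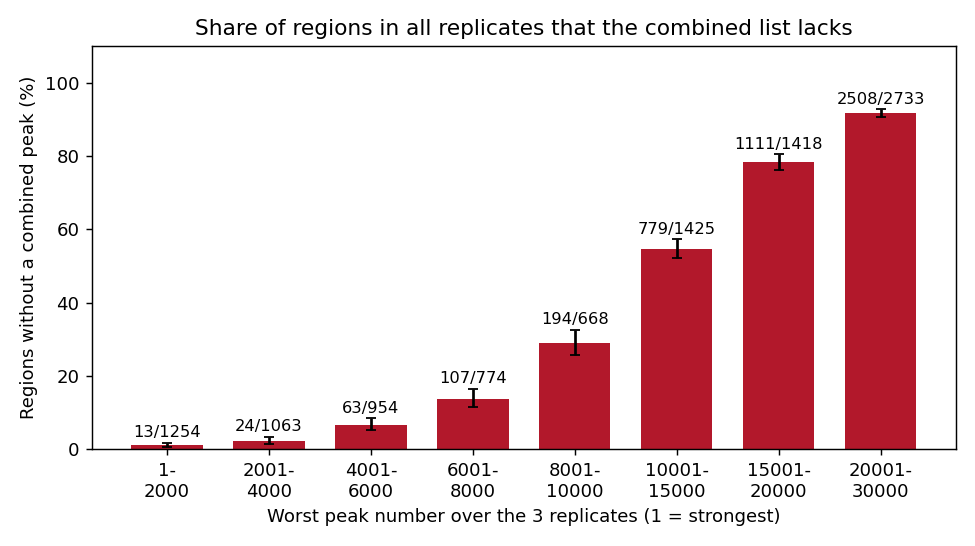
Share of the regions found in every replicate that have no combined peak (bars, in percent, with exact 95% intervals), by the worst of their 3 peak numbers; the counts above the bars are unlisted sites of all regions. The share is 1.04% in the strongest class and 91.8% in the weakest.

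Counted by thresholds, 205 unlisted sites (4.27%) were at the ceiling of replicate 1, where 37.3% of all regions found in every replicate were. For replicate 2 the count was 65 (1.35%, against 24.4% of those regions) and for replicate 3 it was 242 (5.04%, against 36.2%). Only 29 (0.604%) were at the ceiling in every replicate, as were 19.2% of the regions found in every replicate. An FDR of at most 0.05 in every replicate was held by 190 unlisted sites (3.96%), compared with 38.7% of those regions. Within the size of the combined list, numbers up to 6029 in every replicate, there were 101 (2.10%), compared with 31.9% of those regions. These shares were fixed in part by the choice of the sites and are descriptions. Listed sites whose best combined peak was numbered over 5000 come from the end of the combined list. The 792 of them had a median worst number of 12677, against 20484 in unlisted sites. Stronger than the median of those listed sites were 771 unlisted sites (16.1%).

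The replicates placed unlisted sites less closely than listed ones and ranked them less alike, which is given as a description. The 3 peak midpoints of a site spanned a median of 296 bp in unlisted sites and 77 bp in listed sites. They lay within 100 bp of one another in 554 unlisted sites (11.5%) and in 3362 listed sites (61.2%), with 38.1% over both. Between replicates 1 and 2 the median midpoint distance was 170 bp in unlisted and 44 bp in listed sites, between replicates 1 and 3 it was 170 and 43.5 bp, and between replicates 2 and 3 it was 189 and 46 bp. Since most intervals were 430 or 450 bp wide, an overlap of 1 bp allows distances of this order. Spearman's rho of the peak number averaged 0.193 ± 0.0198 in unlisted sites and 0.666 ± 0.00483 in listed sites (SD over 3 pairs that share replicates), a description across sites that are not independent and whose range of strength differs.

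Up to a worst number of 4000 the replicates placed unlisted sites about as closely as listed ones. In the class up to 2000 the midpoints of unlisted sites spanned a median of 35 bp, against 39 bp in listed sites, and over 2000 and up to 4000 the medians were 52.5 and 62 bp. The classes held only 13 and 24 unlisted sites. Over 4000 and up to 6000 the median was 200 bp in unlisted and 89 bp in listed sites, and up to 8000 it was 360 and 116 bp. Of the 101 unlisted sites numbered up to 6029 in every replicate, 56 were placed within 100 bp. Among listed sites with such numbers, 2399 of 3178 were. Those 56 unlisted sites had a median distance of 8815 bp to the nearest combined peak. The other 45, whose midpoints spanned a median of 334 bp, had 2099 bp. The 56 were also the stronger, with a median worst number of 3410 against 5423, and the part of strength in this difference was not tested. At the weak end, 264 of 2508 unlisted sites with a worst number over 20000 were placed within 100 bp. Of the listed sites with such numbers, 91 of 225 were.

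**Figure D3:**
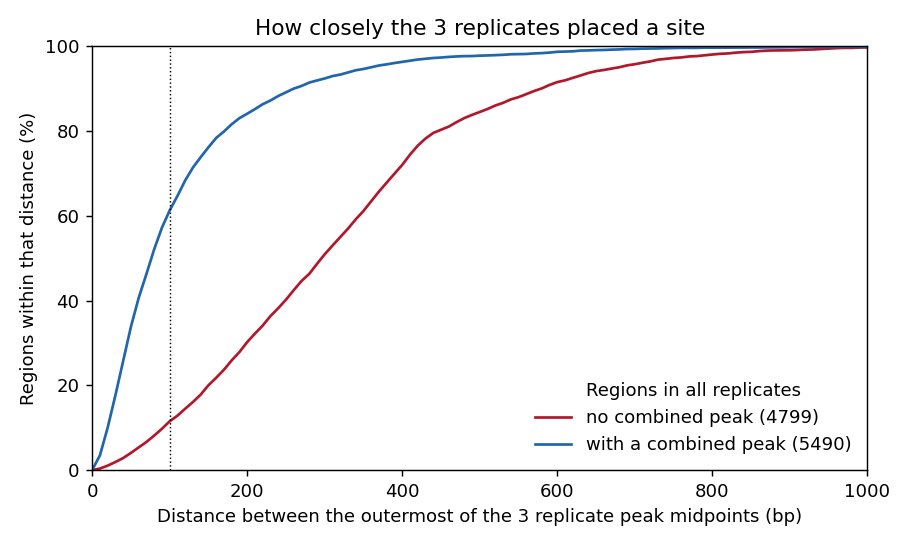
Cumulative share of sites (percent) by the distance between the outermost of the 3 replicate peak midpoints (bp) in 4799 unlisted sites (red) and 5490 listed sites (blue). At the dotted line, 100 bp, the curves stand at 11.5% and 61.2%.

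Unlisted sites lay closer to combined peaks than unreplicated regions did, although neither set touches one. The median distance was 2803 bp for unlisted sites and 5475 bp for unreplicated regions. A combined peak within 2000 bp was found for 1920 of 4799 unlisted sites (40.01%, exact 95% interval 38.6 to 41.4%) and for 3698 of 14187 unreplicated regions (26.1%, 25.3 to 26.8%), and for 29.6% of both together. The odds ratio was 1.89 (95% interval 1.76 to 2.03; two-sided Fisher's exact test, p = 1.6e-71 after Benjamini-Hochberg adjustment over the 5 tests of this report). With each replicate's peaks joined in turn, the share was 40.02 ± 0.235% for unlisted sites and 25.9 ± 1.36% for unreplicated regions (SD over 3 joinings). Unlisted sites need a peak in every replicate, so the joinings describe largely the same sites and their SD does not measure spread between replicates. Unlisted sites were also stronger than unreplicated regions, with median numbers of 13041 and 18711 in replicate 1. The test was therefore repeated within a band of numbers. Among regions numbered over 2000 and up to 10000 in each replicate that had them, the odds ratio was 1.44 (adjusted p = 0.0065, Fisher's exact test). An unlisted site needed all 3 numbers in this band, while an unreplicated region needed only those it had. Strength was thus not matched, and its part in the difference was not tested. With only peaks of an FDR of at most 0.05, joined anew, the direction turned, to 36.4% of 173 unlisted sites against 42.2% of 1928 unreplicated regions (Fisher's exact test, odds ratio 0.785, adjusted p = 0.15). Regions wider than 430 bp made up 28.1% of unlisted sites and 13.1% of unreplicated regions. Distances ran from edge to edge, and the part of width in them was not tested. With regions of 1000 bp or more left out the odds ratio was 1.87. Position along the chromosome, described below, was not matched either. On the autosomes 53.6% of unlisted sites and 43.5% of unreplicated regions lay in the central part, as did 63.8% of listed sites. The part of position in the difference in distance was not tested. The tests count regions as independent, which neighbouring regions are not.

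**Figure D4:**
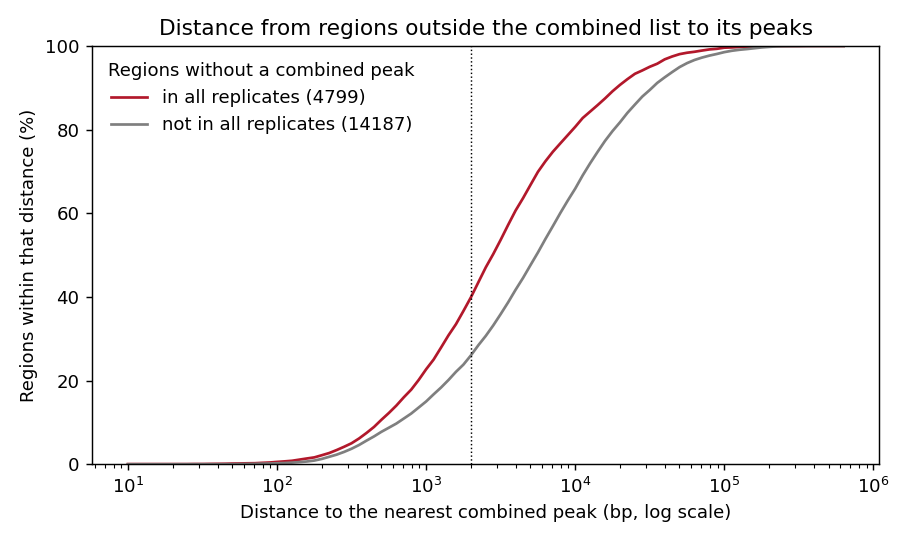
Cumulative share of regions without a combined peak (percent) by their edge-to-edge distance to the nearest combined peak (bp, log scale), for 4799 unlisted sites (red) and 14187 unreplicated regions (grey). At the dotted line, 2000 bp, the curves stand at 40.01% and 26.1%.

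Few unlisted sites adjoined a combined peak. A gap of at most 200 bp was seen for 104 (2.17%) and one of at most 500 bp for 508 (10.6%), while 66.7% had a combined peak within 5000 bp and 90.7% within 20000 bp. The median distance was 2267 bp on X and ran from 2521 bp on II to 3355 bp on I among the autosomes. The strong sites did not follow this pattern, since the 29 at the ceiling of every replicate had a median distance of 12889 bp, against 2790 bp for all other unlisted sites. Of these 29, 18 were beyond 10 kb. By classes of the worst number, the median distance was 20072 bp up to 2000 (13 sites) and 12647 bp up to 4000 (24 sites). It was 2771 bp up to 6000 and between 2210 and 3140 bp in the classes above.

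At the edge of the rule, the nearest unlisted site was on IV from 4454392 to 4454821, whose last base adjoins combined peak 3949. It was numbered 11441, 2603 and 3113 in replicates 1, 2 and 3. Another on II from 8135163 to 8135803, numbered 2167, 7024 and 2552, had 1 base between it and combined peak 5625, a distance of 2 bp as counted here. The next were on IV from 4518702 to 4519131 at 26 bp, on X from 15707849 to 15708278 at 32 bp and on X from 4146459 to 4147092 at 36 bp. Just on the other side, the listed site on I from 3070325 to 3070995 shared only 17 bp with combined peak 4364 and was numbered 3379, 5192 and 2523. Listed sites on V from 8426178 to 8426607, on X from 7779041 to 7779700, on III from 4328128 to 4328557 and on X from 2498329 to 2498758 shared 24, 25, 32 and 32 bp. The sites on both sides of this edge overlapped in strength. At the far end, the unlisted site on X from 6893 to 7322 was 318 kb from any combined peak, but its numbers of 24815, 25780 and 23259 placed it among the weakest. Next came V from 18376163 to 18376592 at 193 kb (18010, 16069 and 11816), II from 1507100 to 1507802 at 186 kb (10563, 28548 and 29124), V from 2912620 to 2913049 at 181 kb (19350, 7818 and 10747) and II from 1500360 to 1500789 at 180 kb (7051, 15120 and 16900). None of these 5 was within the first 6029 peaks of any replicate.

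Unlisted sites were spread over all chromosomes and were less often on X than listed sites. Chromosome III held the most, 901 (65.4 per Mb), followed by I with 841 (55.8), IV with 802 (45.9), X with 769 (43.4), II with 765 (50.1) and V with 721 (34.5). X held 16.0% of unlisted sites (exact 95% interval 15.0 to 17.1%) and 19.7% of listed sites (18.7 to 20.8%), and 18% of both together. The odds ratio was 0.777 (95% interval 0.701 to 0.862; two-sided Fisher's exact test, adjusted p = 1.6e-06). With each replicate's peaks joined in turn the share on X was 15.8 ± 0.225% in unlisted and 19.8 ± 0.0629% in listed sites (SD over 3 joinings). Both sets need a peak in every replicate, so this SD does not measure spread between replicates. In 2 alternatives that keep part of the peaks the ratio was above 1 and did not pass the test. Among those numbered over 2000 and up to 10000 in every replicate X held 20.2% of 352 unlisted and 18.5% of 1780 listed sites (odds ratio 1.11, Fisher's exact test, adjusted p = 0.50). With only peaks of an FDR of at most 0.05 it held 25.4% of 173 unlisted and 20.1% of 3773 listed sites (Fisher's exact test, odds ratio 1.36, adjusted p = 0.12). Against unreplicated regions, of which 15.0% were on X, the difference did not pass the test (Fisher's exact test, odds ratio 1.08, 95% interval 0.985 to 1.18, adjusted p = 0.099), and it turned with the replicate whose peaks were joined. The odds ratio was 0.906 for replicate 2, which passed in the other direction (Fisher's exact test, adjusted p = 0.031), and 0.974 for replicate 3 (adjusted p = 0.58, Fisher's exact test). With replicate 3 left out it was 1.09 and passed (Fisher's exact test, adjusted p = 0.043), so no direction can be given.

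On the autosomes, unlisted sites as a whole were more evenly spread along the chromosome than listed sites. The central 50% of the autosomes held 2161 of 4030 unlisted sites (53.6%, exact 95% interval 52.1 to 55.2%) and 2813 of 4408 listed sites (63.8%, 62.4 to 65.2%), an odds ratio of 0.656 (95% interval 0.600 to 0.716; two-sided Fisher's exact test, adjusted p = 3.8e-21). Compared with unreplicated regions, of which 43.5% were central, they were more central (Fisher's exact test, odds ratio 1.502, 95% interval 1.40 to 1.62, adjusted p = 1.8e-28). These sets also differed in their nearness to combined peaks, and the part of nearness in this difference was not tested. With each replicate's peaks joined in turn, the central share was 53.7 ± 0.157% in unlisted sites and 63.8 ± 0.0582% in listed sites (SD over 3 joinings). In unreplicated regions it was 44.8 ± 3.16%. Unlisted and listed sites need a peak in every replicate, so their SD does not measure spread between replicates. The share ran from 50.7% on IV to 61.2% on V in unlisted sites, and from 60.6% on IV to 72.4% on V in listed sites. On II the right outer part held 240 unlisted sites and the left outer part 100, a skew that listed sites shared with 238 and 85. On X 50.3% of unlisted and 53.5% of listed sites were central. Put as the share missing from the combined list, 53.4 to 55.5% of the sites in the outer parts of I, III, IV and V were unlisted, 51.3% on II and 43.2% on X. In the central parts the share ran from 40.8% on V to 45.2% on III among the autosomes, and was 40.1% on X. On X the exact 95% intervals overlapped, with 39.9 to 46.5% in the outer and 37.0 to 43.2% in the central part.

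The central share varied with strength, and it was the strong unlisted sites that lay mostly in the chromosome centres. Of the 76 autosomal sites numbered up to 6029 in every replicate, 69 were central (90.8%, exact 95% interval 81.9 to 96.2%), as were 1631 of 2543 listed sites with such numbers (64.1%, 62.2 to 66.0%). Of the 21 autosomal sites at the ceiling in every replicate, 20 were central, and among the 20 strongest sites 19 were, X included. In classes of the worst number the central share of unlisted sites was 90.0% up to 2000 (9 of 10 autosomal sites). The share was 94.1% up to 4000 (16 of 17) and 91.7% up to 6000 (44 of 48). From there it was 72.6% up to 8000, 68.1% up to 10000, 60.8% up to 15000, 54.6% up to 20000 and 47.8% beyond. Listed sites stayed between 58.2 and 66.5% in all 8 classes. Among regions numbered over 2000 and up to 10000 in every replicate, 73.0% of 281 unlisted and 62.8% of 1450 listed sites were central, so the odds ratio turned to 1.60 (two-sided Fisher's exact test, adjusted p = 0.0027). With only peaks of an FDR of at most 0.05 it was 2.85 (83.7% of 129 unlisted and 64.3% of 3015 listed sites, Fisher's exact test, adjusted p = 6.9e-06).

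**Figure D5:**
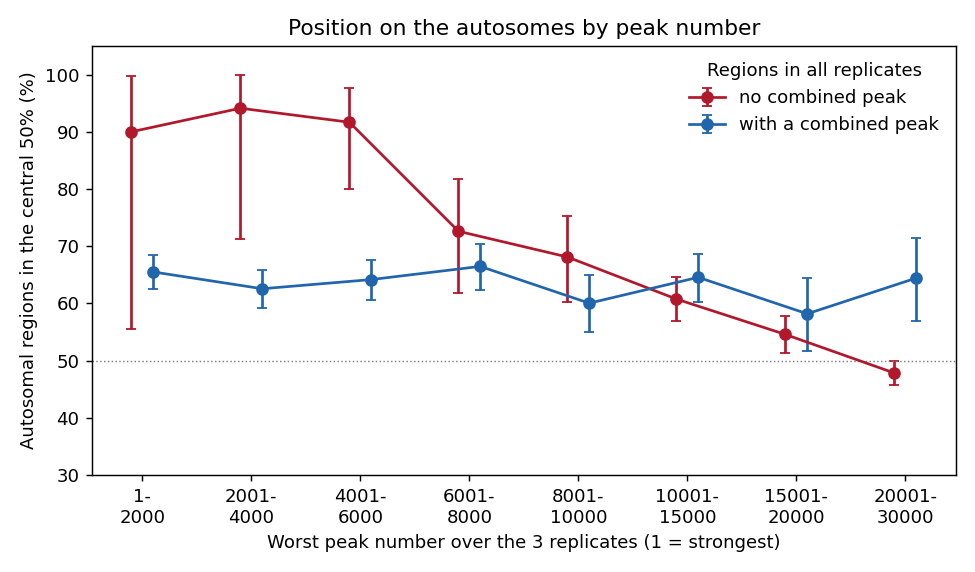
Share of autosomal sites in the central 50% of their chromosome (percent, with exact 95% intervals) by the worst of their 3 peak numbers, for unlisted sites (red) and listed sites (blue); the dotted line marks 50%. Unlisted sites run from 90.0% in the strongest class (9 of 10 sites) to 47.8% in the weakest, and listed sites stay between 58.2 and 66.5%.

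By each replicate's own ranking the central share of unlisted sites also fell from strong to weak. Among unlisted sites with a number up to 3000 in a given replicate, the central share on the autosomes was 86.5% of 52, 89.7% of 58 and 83.1% of 77 by replicates 1, 2 and 3, against 64.5, 64.9 and 63.9% in listed sites. In the class over 3000 and up to 6000 it was 67.4 ± 0.189% in unlisted and 63.0 ± 0.167% in listed sites (SD over 3 replicates). From there up to 10000 it was 58.4 ± 1.68% and 64.1 ± 1.03%, so unlisted sites were the less central. By the worst number they were the more central over 6000 and up to 8000 (72.6 against 66.5%) and up to 10000 (68.1 against 60.1%). By each replicate's number over 20000 the central share was 45.4 ± 1.43% in unlisted and 65.0 ± 8.79% in listed sites. The last came from 61 to 84 sites per replicate. The share of X likewise ran from 27.1 ± 3.85% of unlisted sites up to 3000 to 14.1 ± 0.431% over 20000, while that of listed sites was 20.4 ± 0.213% and 20.2 ± 5.44%. The replicates overlap in their sites by the way these were chosen, so the 3 values are not independent.

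Distance and position went together within the unlisted sites. Of those at most 200 bp from a combined peak, 70.8% of 89 autosomal sites were central. The share was 64.6% over 500 and up to 1000 bp, 55.5% over 2000 and up to 5000 bp, 42.1% from there up to 20000 bp and 34.8% up to 100000 bp. The 29 sites at the ceiling of every replicate went against this order, with their median distance of 12889 bp and 20 of the 21 autosomal ones in the centre.

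The widths of the intervals are given as a description. An interval narrower than the usual 430 bp of replicate 1 was rare among unlisted sites, 3 of 4799, and was held by 534 listed sites (9.73%). Among sites at the ceiling in every replicate it was held by 1 of 29 unlisted and 514 of 1950 listed sites (26.4%). At the other end, 99 unlisted and 91 listed sites were at least 1000 bp wide. The widest unlisted ones were on III from 7736578 to 7738376 (1799 bp, from 6, 4 and 4 peaks of replicates 1, 2 and 3), on II from 7811013 to 7812694 (1682 bp), on II from 11963708 to 11965289 (1582 bp), on IV from 14623703 to 14625271 (1569 bp) and on III from 10298903 to 10300436 (1534 bp). The worst numbers of these 5 ran from 7145 to 12403, but 3 of them were at the ceiling of 1 replicate, with numbers of 2494 in replicate 2, 2219 in replicate 3 and 4119 in replicate 3. Their midpoints spanned 1285, 1471, 478, 837 and 1281 bp, so the best peak of each replicate often lay at a different place within the run.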

How the data were processed

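Peaks were listed by the authors for each of 3 ChIP replicates and once for the series. Per the file headers and source field, coordinates are on WormBase WS220, peaks came from SPP and the IDR procedure was used. The aligner, the control, the IDR threshold and the merging of replicates were not given in the sources used. The deposited value of each peak is a −log10 of an FDR estimate. This reading rests on the values, since the highest equals −log10 of 0.5 over the number of peaks at it, less 0.5, in each replicate list. Peak numbers follow the falling value (Spearman's rho 0.999, 1.000 and 0.999) and were used as ranks. With no read counts in the lists, depth is unknown.

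From these, overlaps, edge-to-edge distances and midpoints were computed with Python 3.11.15, numpy 2.4.6 and scipy 1.17.1, in scripts checked on simulated lists. The span of a chromosome ended at the last base of any deposited peak. A distance of 1 bp means adjacent bases. The 5 Fisher's exact tests were two-sided. The sites named are the 20 with the lowest worst number, the 5 widest, farthest and nearest, and the 5 listed sites with the smallest overlap. The alternatives covered the overlap, the replicate joined, FDR, peak numbers, width, distance and position limits, and leaving out each replicate. The members, lists and tests were chosen with earlier results of these data known, and the subsets by number and spread after seeing the values. No genome or annotation of WS220 was used, so no gene or sequence is given for a site.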

Additional observations from a re-analysis of the deposited data

Results flagged for a closer look

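Peaks on the mitochondrial genome, which the choice of sites left out, numbered 15, 24 and 24 in replicates 1, 2 and 3 and 0 in the combined list; they stand out as signal outside the comparisons, and no input peaks were analysed here to set beside them.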

How the results depend on the processing

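Of 56 alternatives over the 5 tests, 45 left the direction and the call as they were. The number of unlisted sites was 2695 with a reciprocal overlap of 50%, 173 with an FDR of at most 0.05, 352 with peak numbers over 2000 and up to 10000, and 8006 to 8797 with 1 replicate left out, where sites have to be in fewer lists. With an FDR of at most 0.05 the odds ratio was 1.36 for X against listed sites, 1.63 for X against unreplicated regions (adjusted p = 0.016, Fisher's exact test), 2.85 for the central share against listed sites and 0.785 for nearness. With peak numbers over 2000 and up to 10000 it was 1.11 for X and 1.60 for the central share, both against listed sites. For X against unreplicated regions it was 0.906 and 0.974 with replicate 2 or 3 joined (adjusted p = 0.031 and 0.58, Fisher's exact test), and 0.927 to 1.09 with 1 replicate left out, the highest without replicate 3 (adjusted p = 0.043, Fisher's exact test). Calls were thus gained in both directions. The cause was not tested. With 1 replicate left out, the ratios were 0.726 to 0.786 for X against listed sites, 0.525 to 0.619 and 1.10 to 1.54 for the central share against listed sites and unreplicated regions, and 1.59 to 1.91 for nearness. No paired analysis was possible because replicate numbers are shared only with the inputs, for which no peak list was used. The ceiling ties many strong peaks, so their order rests on the authors' numbers, and the unknown depth limits what an absence means.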

Other observations

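Unlisted sites also formed runs, and each of the 5 windows given here held listed sites too. The densest 30-kb window was on II from 15200274 to 15230519 with 14 unlisted and 6 listed sites. On I from 5383375 to 5410165 there were 12 unlisted sites and 1 listed site, and on I from 2157756 to 2186844 there were 11 and 1. On II from 12034594 to 12059623 there were 12 and 6, and on IV from 5581006 to 5601420 there were 11 and 6. None of the unlisted sites in these 5 windows was at the ceiling of every replicate, and their best worst number was 6355. Over 97 bins of 1 Mb the counts of unlisted and listed sites had a Spearman's rho of 0.558, a description of bins that share the same lists.

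In the 10 stretches of at least 300 kb without a combined peak, 7 of them on V, unlisted sites were sparse as well. These stretches held 35 of the 4799 unlisted sites on 4.38 Mb, 8.00 per Mb, against 47.9 per Mb over all chromosomes. They also held 353 of the 14187 unreplicated regions. No rate was computed for these, so the sparseness cannot be called particular to unlisted sites. The longest, on V from 16965967 to 17857834, held 2 unlisted sites, the better with a worst number of 22659. A strong exception on II, between 1320804 and 1819903, had a worst number of 3715, and on V, between 15189871 and 15511664, the best had 2158, which is the site at 15464954 described above.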
